A study of Homo sapiens with 23 samples.

Results

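The genes described here encode the aminoacyl-tRNA synthetases and 3 proteins that hold several of these enzymes together. They number 38 among the 61806 genes of the first count table and the 42901 genes of the deep one. Of these, 19 encode synthetases of the cytosol, 16 encode synthetases of mitochondria, and *AIMP1*, *AIMP2* and *EEF1E1* encode the scaffold proteins of the multisynthetase complex. They were taken by gene name, with no threshold on a measured value, and the enzymes that charge aspartate are not in the list. It names no separate mitochondrial gene for glycine or lysine, and *GARS1* and *KARS1* were counted with the cytosolic genes only.

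RNA-sequencing was performed on A549, an established human lung adenocarcinoma cell line, after depletion of THUMPD3, a methyltransferase that makes N2-methylguanosine in tRNAs. Cells called siD3 #3 here (siTHUMPD3 in the labels) were transfected with an siRNA against *THUMPD3* (3 libraries) and compared with siControl (2 libraries). Cells called shD3 #1 and shD3 #4 carried a doxycycline-inducible shRNA delivered by lentivirus, and each line had its own controls, sh1Control and sh4Control, with 3 libraries in each group. A further 6 libraries of shD3 #1 and sh1Control, 3 in each group, were sequenced more deeply and are called deep here. The labels name the controls wild type without saying what construct or siRNA they received, and they call the libraries of a group biological replicates. The methods of the study speak of untreated and treated samples, and doxycycline was what induced the shRNAs, so within the shRNA lines the drug and the loss of THUMPD3 cannot be told apart. The siRNA and shRNA samples were harvested at different times after treatment began, so reagent and time cannot be told apart between them. Nothing in the sources used here says whether the deep libraries came from the same cultures as the first ones.

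Each aminoacyl-tRNA synthetase joins an amino acid to its matching tRNAs, and the charged tRNA then brings that residue to the ribosome. Cytosolic and mitochondrial ribosomes use separate tRNA sets, so most amino acids have a pair of enzymes, both encoded in the nucleus, whose names end in 1 (or A and B for the subunits of the cytosolic phenylalanyl enzyme) and in 2. Several cytosolic synthetases are known targets of the transcription factor ATF4, which is translated when uncharged tRNA accumulates and binds C/EBP-ATF response elements (CARE) in promoters.

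The promoters were searched for 3 motifs, which the gene list did not use. RefSeq promoter windows (250 bases before to 50 after a start site, build GRCh38.p14) were found for 33 of the 38 genes. The CARE motif TGATGNAA, on either strand, lay in at least 1 window of 7 of the 16 cytosolic genes that had a window (43.8%), in 1 of 14 mitochondrial genes (7.14%) and in none of the 3 scaffold genes. Among all 27305 genes with a window the share was 4.46%. Of the 7 cytosolic genes, 6 held the same word, TGATGCAA, and in 6 of the 7 the motif began within 33 bases of the start site. That distance is the one of the farthest of those 6 sites, and the share of motifs so placed among all genes was not taken. Stretches of 60 bases around the motif are shown because these genes are compared with the other cytosolic ones further on. They read 5′ to 3′ on the strand of the gene, with the match in capitals, and a match here is a string of letters and not a measured binding site.
*AARS1*, chr16:70289660-70289719, minus strand, motif beginning 187 bases upstream: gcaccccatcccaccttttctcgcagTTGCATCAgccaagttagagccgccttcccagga
*CARS1*, chr11:3057394-3057453, minus strand, 2 bases upstream: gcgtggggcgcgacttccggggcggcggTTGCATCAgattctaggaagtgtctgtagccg
*GARS1*, chr7:30594819-30594878, plus strand, 33 bases upstream: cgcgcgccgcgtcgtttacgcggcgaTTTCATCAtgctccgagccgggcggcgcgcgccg
*IARS1*, chr9:92293677-92293736, minus strand, 13 bases upstream: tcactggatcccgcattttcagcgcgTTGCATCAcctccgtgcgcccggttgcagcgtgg
*MARS1*, chr12:57488038-57488097, plus strand, 4 bases upstream: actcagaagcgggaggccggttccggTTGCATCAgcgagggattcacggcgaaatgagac
*NARS1*, chr18:57621807-57621866, minus strand, 14 bases downstream: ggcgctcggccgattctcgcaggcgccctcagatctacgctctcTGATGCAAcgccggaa
*TARS1*, chr5:33440935-33440994, plus strand, 2 bases downstream: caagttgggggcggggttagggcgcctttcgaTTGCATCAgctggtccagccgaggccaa
*YARS2*, chr12:32756061-32756120, minus strand, 197 bases upstream: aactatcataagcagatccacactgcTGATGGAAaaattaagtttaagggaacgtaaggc

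Both other motifs searched were found for fewer of the 33 genes with a window than CARE was (8 genes, 24.2%). The E-box CACGTG was found for 1 cytosolic gene (*IARS1*), 3 of 14 mitochondrial genes (*CARS2*, *EARS2* and *MARS2*) and *AIMP2*. These are 15.2% of the 33, against 8.78% of all genes with a window. In the mitochondrial genes it was commoner than CARE, which was found for 1 of 14, and among all genes it was so too (8.78% against 4.46%). Interferon is known to induce *WARS1*, the tryptophanyl enzyme. The interferon-stimulated response element was found for *EARS2* and for *WARS1*, which are 6.06% of the 33, against 4.38% of all genes. In *WARS1* it began 55 bases upstream of a start site, in this stretch:
*WARS1*, chr14:100375368-100375427, minus strand: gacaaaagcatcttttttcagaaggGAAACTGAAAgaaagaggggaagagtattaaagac

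*THUMPD3* itself was lower in all knockdown libraries than in all their controls. Levels are given as cpm, the counts scaled to a common library size after TMM normalisation, and that of *THUMPD3* fell to 51.1% of the control in shD3 #1, 49.6% in deep shD3 #1, 31.4% in shD3 #4 and 17.1% in siD3 #3. Total counts ranged from 9854294 to 22101059 in the first 17 libraries and from 27285889 to 59974740 in the 6 deep ones. In the first table the mitochondrial rRNA *MT-RNR2* took 24.6% to 25.3% of the counts in shD3 #1 and 27.3% to 29.1% in its controls, but 27.0% to 32.2% against 24.5% to 27.1% in shD3 #4, and 25.5% to 31.2% against 21.9% to 24.1% in siD3 #3. In the deep libraries it took at most 0.0185%. The 6 epithelial markers of A549 were present in every group, and their summed level moved with the shRNAs: 7653 to 7942 cpm in shD3 #1 against 5985 to 6298 in its controls, and 4826 to 5284 in shD3 #4 against 6697 to 6952. The summed level of 5 fibroblast markers was low but higher in every knockdown than in its controls, without overlap. It was 9.77 to 11.8 cpm against 5.68 to 7.16 in shD3 #1, 26.9 to 29.4 against 7.75 to 8.49 in deep shD3 #1, 9.12 to 12.1 against 4.04 to 8.36 in shD3 #4 and 6.11 to 7.45 against 2.78 to 3.81 in siD3 #3, while *DCN* had no count in any control library or in either set of shD3 #1. Endothelial markers summed to at most 1.55 cpm and lay above their controls in every knockdown except the first libraries of shD3 #1. Blood cell markers summed to at most 7.21 cpm and lay below their controls in both sets of shD3 #1. The part of these markers in the results was not tested. In bulk RNA, fewer cells of a type and less RNA per cell cannot be told apart.

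In control cells the transcripts of the cytosolic synthetases were in the median the more abundant ones. Per kilobase of the canonical transcript, in the 8 control libraries of the first table, their levels had a median of 48.2 cpm per kilobase against 9.58 for the mitochondrial enzymes. *TARS1*, the threonyl enzyme, was the highest of the cytosolic genes at 106 ± 5.81 (SD, n = 8), followed by *IARS1*, the isoleucyl enzyme, at 86.3 ± 4.84, whose libraries did not overlap those of *TARS1*. *IARS1* and the next in order, *RARS1* (arginyl, 81.0 ± 8.05), did overlap. The lowest was *FARSB*, the beta subunit of the phenylalanyl enzyme, at 8.65 ± 0.680, whose canonical transcript, of 6761 bases, is the longest among them. Among mitochondrial genes *IARS2* stood apart at 73.3 ± 5.48, with *CARS2* next at 22.8 ± 1.64, and *VARS2*, the valyl enzyme, was lowest at 0.122 ± 0.0405. *AIMP2* was at 46.6 ± 5.76, *AIMP1* at 21.8 ± 1.02 and *EEF1E1* at 4.73 ± 0.756. The 3 deep control libraries gave medians of 38.3 for cytosolic and 9.10 for mitochondrial genes, but another order within them. There *AARS1* was the highest (85.8) and *VARS1* the lowest (0.189) of the cytosolic genes, and *SARS2* (26.1) came next after *IARS2*.

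**Figure D1:**
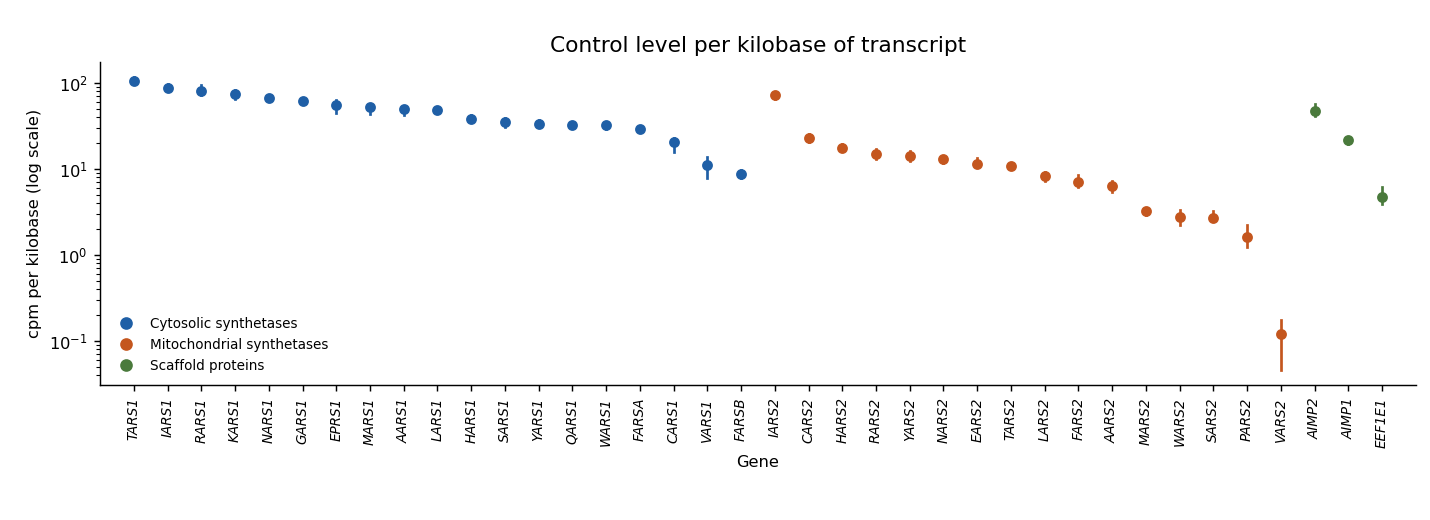
Control level of each gene in cpm per kilobase of the canonical transcript (y axis, log scale), with the mean over the 8 control libraries of the first table as a point and the lowest to highest library as a line, ordered by level within cytosolic, mitochondrial and scaffold genes. *IARS2* at 73.3 sits among the cytosolic enzymes, and *VARS2* at 0.122 lies below all other genes.

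The tables did not give every gene the same level. They use different gene models, since the first lists genes by Ensembl identifiers and the deep one by symbols. They also differ in the share of counts in *MT-RNR2*, which was 21.9% to 32.2% in the first and at most 0.0185% in the deep one. The part of either difference in the levels was not tested. The control level of *CARS1* was 59.6 cpm in the first table and 2.56 cpm in the deep one, that of *VARS1* was 48.8 to 50.8 and 0.695 to 0.884 cpm in single libraries, and that of *SARS2* was 5.48 and 50.2 cpm. *VARS2* was at 0.497 cpm in the first table and had no count in any deep library. In the annotation, another gene on the same strand covers 77.5% of the *SARS2* exon bases, 100% of those of *VARS2* and 37.5% of those of *EEF1E1*, and a gene on the opposite strand, *EIF2AK1*, covers 44.4% of those of *AIMP2*. Values of these genes are therefore uncertain, and those of *CARS1* and *VARS1* in the deep table rest on few counts (25 to 49 per library for *VARS1*).

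The first question was whether the compartments moved alike in each knockdown. For each library the mean log2 cpm over the genes of a compartment was taken relative to the mean of its controls. It is a description without a test. The mean covers 19 cytosolic and 15 mitochondrial genes, since *VARS2* was not tested in every comparison. Genes called uncertain above count in full. By log2 fold change these include *SARS2* (−0.81 in both sets of shD3 #1), and *CARS1* (0.54) and *VARS1* (0.22) in deep shD3 #1. Their part in these means was not tested. In shD3 #1 the cytosolic mean stayed within −0.01 to 0.06 while the mitochondrial mean lay at −0.13 to −0.06, below its 3 controls (−0.03 to 0.04). The deep libraries of shD3 #1 gave −0.02 to 0.05 for the cytosolic and −0.24 to −0.18 for the mitochondrial mean. In shD3 #4 the order was the opposite, with the cytosolic mean at −0.29 to −0.18 and the mitochondrial mean at −0.08 to −0.05. In siD3 #3 both lay low, at −0.35 to −0.27 and −0.35 to −0.25.

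Subtracting the mitochondrial from the cytosolic mean in the same library gave 0.11 to 0.14 in shD3 #1, where the controls spread from −0.06 to 0.06. It gave 0.20 to 0.23 in deep shD3 #1 (controls −0.04 to 0.03) and −0.21 to −0.11 in shD3 #4 (controls −0.02 to 0.02). Knockdown and control libraries did not overlap in any of these. In siD3 #3 the difference ran from −0.04 to 0.08, on both sides of its controls (−0.01 and 0.01).

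**Figure D2:**
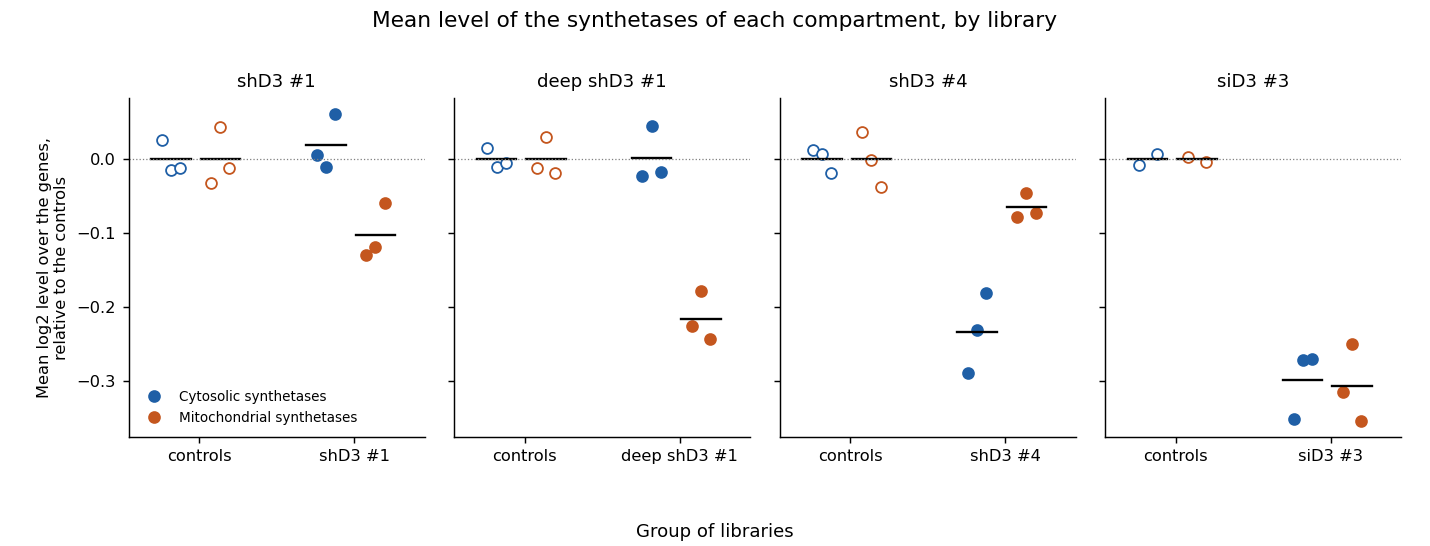
Mean log2 level over the cytosolic (blue) and mitochondrial (orange, without *VARS2*) synthetases in each library relative to the mean of its controls (y axis). Controls are open points, knockdown libraries are filled points and group means are bars. The mitochondrial mean is the lower one in both sets of shD3 #1, the cytosolic mean is the lower one in shD3 #4, and both are low in siD3 #3.

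In shD3 #1 the synthetases moved in both directions. The gene with the largest rise was *MARS2*, the mitochondrial methionyl enzyme, and the genes with the largest falls were the mitochondrial seryl and alanyl enzymes *SARS2* and *AARS2*. At an adjusted p-value under 0.05 (edgeR's quasi-likelihood test, Benjamini-Hochberg over all genes tested), 6 cytosolic synthetases were higher and 4 lower of 19, and 3 mitochondrial ones were higher and 6 lower of 16. Of all 16456 genes tested, 28.6% were higher and 27.8% lower by the same rule, so the number of changed members is near the background. With a change of at least 1.5-fold also required, which 14.5% of all genes met upwards and 14.6% downwards, *MARS2* was higher and *AARS2* and *SARS2* were lower. The median log2 fold change was 0.00 over cytosolic and 0.02 over mitochondrial synthetases, beside −0.01 over all genes. The mitochondrial median changed with single libraries, since it lay between −0.051 and 0.0013 with each library left out and was below 0 in 5 of these 6 fits, and its sign is opposite to that of the mitochondrial means by library given above.

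*MARS2* read 14.1, 14.4 and 14.5 cpm in shD3 #1 and 9.44, 9.57 and 9.13 cpm in sh1Control (log2 fold change 0.61 ± 0.09 SE, adjusted p = 4.72e-05). *AARS2* read 18.7, 22.1 and 21.6 cpm against 29.8, 31.0 and 35.1 cpm (−0.62 ± 0.09, adjusted p = 1.56e-05). *SARS2* read 2.61, 3.67 and 2.85 cpm against 4.98, 6.21 and 5.24 cpm (−0.81 ± 0.17, adjusted p = 0.000731). All knockdown libraries lay outside their controls for these genes. *AARS2* no longer reached 1.5-fold without sh1Control replicate 3 or without shD3 #1 replicate 1, when its log2 fold change was as small as −0.54.

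The rises among cytosolic genes were led by *HARS1*, the histidyl enzyme. It read 110.5, 112 and 107 cpm in shD3 #1 and 76.0, 74.2 and 75.5 cpm in sh1Control (log2 fold change 0.55 ± 0.06, adjusted p = 9.62e-07). *FARSB*, *NARS1* (asparaginyl), *RARS1*, *GARS1* (glycyl) and *MARS1* (methionyl) were higher by smaller amounts, with log2 fold changes from 0.21 to 0.36. The 4 that fell were *EPRS1* (−0.40 ± 0.06), which charges both glutamate and proline, *QARS1* (glutaminyl, −0.35 ± 0.06), *YARS1* (tyrosyl, −0.28 ± 0.06) and *IARS1* (−0.26 ± 0.06). Mitochondrial *IARS2* read 188, 197 and 194 cpm against 280.1, 278 and 261 cpm, a log2 fold change of −0.50 ± 0.06.

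The deep libraries gave the falls again and only part of the rises. There 4 cytosolic synthetases were higher and 8 lower of 19, and 1 mitochondrial one was higher and 8 lower of 15, where 31.1% of all 18763 genes were higher and 31.5% lower. All 11 members that fell in the first libraries of shD3 #1 also fell in the deep ones, but only 3 of the 9 that rose did so again (*FARSB*, *HARS1* and *MARS2*), and none was called in opposite directions. Among all genes tested in both sets of libraries, 76.8% of those lower in the first set were lower again, and 78.1% of those higher were higher again. *RARS1*, at 0.27 ± 0.07 in the first libraries, was at −0.06 ± 0.06 in the deep ones, and *PARS2*, the mitochondrial prolyl enzyme with 2.91 to 5.29 cpm in the first libraries of shD3 #1 and its controls, was at 0.57 ± 0.16 and −0.09 ± 0.12. *SARS2* was the only member past 1.5-fold in the deep libraries, where 15.0% of all genes were higher and 14.1% lower by both thresholds. It read 29.7, 28.4 and 27.9 cpm against 51.1, 50.7 and 48.8 cpm (−0.81 ± 0.05, adjusted p = 5.27e-09). The deep median over cytosolic synthetases, −0.06, turned to 0.02 without deep shD3 #1 replicate 1.

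In shD3 #4 nearly all the members that fell were cytosolic or scaffold genes. Of the 19 cytosolic synthetases 13 fell and none rose, whereas 2 of the 16 mitochondrial ones fell (*NARS2* and *YARS2*) and none rose. Among all 16493 genes tested, 20.0% were higher and 20.8% lower. The median log2 fold change was −0.23 over cytosolic and −0.06 over mitochondrial synthetases, beside 0.01 over all genes. No member reached 1.5-fold, which 8.00% of all genes did upwards and 4.50% downwards. The largest falls were those of *FARSA*, the alpha subunit of the phenylalanyl enzyme (−0.47 ± 0.07, adjusted p = 3.25e-06), *CARS1*, the cysteinyl enzyme (−0.46 ± 0.07, adjusted p = 2.93e-06), and *WARS1* (−0.43 ± 0.07, adjusted p = 8.57e-06).

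*FARSA* read 36.8, 41.2 and 39.8 cpm in shD3 #4 against 55.0, 55.1 and 52.8 cpm in sh4Control. *CARS1* read 40.1, 40.7 and 43.7 cpm against 57.1, 56.8 and 57.2 cpm. *KARS1*, the lysyl enzyme that serves both compartments, read 112, 109 and 117 cpm against 158, 151 and 137 cpm (−0.40 ± 0.07). Every knockdown library lay below every control for these 3 genes. For cytosolic genes this was so of 15 of 19, where 24.7% of all genes tested had every knockdown library below every control. The mitochondrially encoded share of the counts moved with shD3 #4, and without those genes in the library size the cytosolic median was −0.24 and 18 members were lower in place of 17.

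In siD3 #3 members of both compartments and of the scaffold fell. Of 19 cytosolic synthetases 9 fell and 1 rose, of 15 mitochondrial ones that were tested 7 fell and none rose, and all 3 scaffold proteins fell. Among all 17032 genes tested, 16.6% were higher and 16.4% lower. The median log2 fold change was −0.27, −0.44 and −0.49 over the 3 groups, beside 0.03 over all genes. The mitochondrial median was lower than the cytosolic one, but the means by library given above overlapped (−0.35 to −0.27 cytosolic, −0.35 to −0.25 mitochondrial). With 1.5-fold also required (12.5% of all genes higher, 9.42% lower), *NARS2*, *FARSB*, *EEF1E1* and *TARS1* were lower and no member was higher. With either siControl library left out, the number of members lower dropped from 19 to 10 (without replicate 1) or 12 (without replicate 2), and none was higher.

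*NARS2*, the mitochondrial asparaginyl enzyme, read 17.9, 18.6 and 19.2 cpm in siD3 #3 and 33.7 and 32.4 cpm in siControl (log2 fold change −0.83 ± 0.10, adjusted p = 0.000643). *FARSB* read 40.6, 42.7 and 36.8 cpm against 66.4 and 62.3 cpm (−0.69 ± 0.10, adjusted p = 0.00153). *TARS1* read 178, 193 and 201 cpm against 279.9 and 313 cpm (−0.63 ± 0.10, adjusted p = 0.00249). *EEF1E1* read 3.40, 3.94 and 3.78 cpm against 5.34 and 6.37 cpm (−0.66 ± 0.18, adjusted p = 0.0276). All knockdown libraries were below both controls for these genes. *NARS2* and *FARSB* passed both thresholds in all 5 fits that left out a library, *TARS1* did in 3 of them, the exceptions being without siControl replicate 2 and without siD3 #3 replicate 1, and *EEF1E1* in 1, while DESeq2 gave *EEF1E1* an adjusted p of 0.0524.

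The single member that rose in siD3 #3 was *SARS1*, the cytosolic seryl enzyme. It read 97.4, 103 and 95.7 cpm in siD3 #3, all above the siControl libraries at 75.9 and 75.2 cpm (0.38 ± 0.08, adjusted p = 0.0101). In shD3 #1 and shD3 #4 it was at −0.13 ± 0.08 and −0.06 ± 0.07. The rise did not pass the threshold without siControl replicate 1 or without siControl replicate 2, in fits in which the remaining control was assumed to vary like the other samples.

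**Figure D3:**
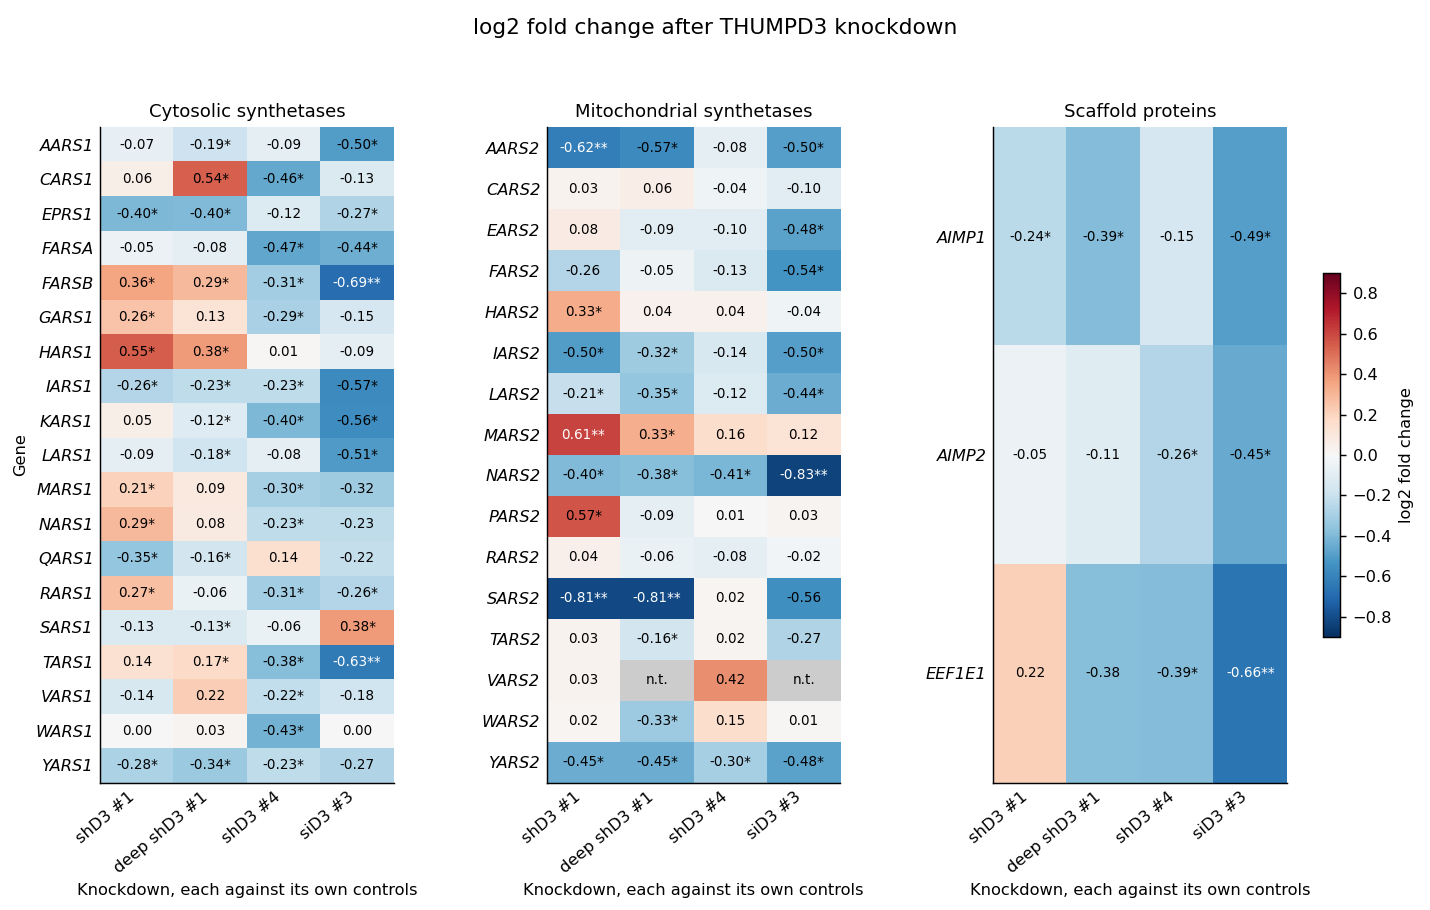
Log2 fold change of each gene (rows) in each knockdown against its own controls (columns), with red higher and blue lower, for cytosolic synthetases, mitochondrial synthetases and scaffold proteins. One asterisk marks an adjusted p under 0.05, a pair marks that and a change of at least 1.5-fold, and n.t. marks a gene not tested. The shD3 #4 column is blue for 17 of 19 cytosolic genes, and *IARS1*, *NARS2* and *YARS2* carry an asterisk in every column.

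The libraries themselves gave a like picture. Every knockdown library was below every control for 12 of the 38 members in shD3 #1 and above for 9, where this held for 31.2% and 30.8% of all genes. With the deep libraries it was 19 below and 5 above of 37 (34.0% and 33.2% of all genes). In shD3 #4 it was 22 below and 3 above of 38 (24.7% of all genes either way), and in siD3 #3, with 2 controls, 27 below and 1 above of 37 (29.5% and 30.5%).

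Across the 4 comparisons, of which the first and deep shD3 #1 use the same shRNA, 3 members fell in all: *IARS1*, *NARS2* and *YARS2*, the mitochondrial tyrosyl enzyme. A further 7 fell in 3 of the 4 and did not pass the test in the other (*EPRS1*, *KARS1*, *YARS1*, *AARS2*, *IARS2*, *LARS2* and *AIMP1*), and none rose in 3. Of the 13535 genes tested in all 4 comparisons, 37 members among them, 5.79% were lower in all 4, 7.99% in exactly 3, and 12.4% were higher in at least 3, so the 3 members lower throughout are near the background. *NARS2* was at 17.9 to 27.2 cpm in the 9 knockdown libraries of the first table and at 29.2 to 34.2 cpm in the 8 controls. *YARS2* was at 20.9 to 25.0 cpm against 26.4 to 33.9 cpm. *IARS1* was at 266 to 336 cpm against 367 to 431 cpm. For these 3 genes no knockdown library of the first table reached any control. The genes were picked by their falls in these same libraries, so this separation adds no support. Each comparison was also normalised apart, so levels from different comparisons are not strictly on a common scale. The call of *YARS2* in siD3 #3 was lost without siControl replicate 2 (−0.43, adjusted p = 0.0671 with edgeR), while those of *IARS1* and *NARS2* held in every fit that left out a library.

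Several of the other 7 were called by a narrow margin. *KARS1* in deep shD3 #1 (−0.12 ± 0.05) kept its call in 2 of the 6 fits that left out a library, *LARS2* in shD3 #1 (−0.21 ± 0.07) in 3 of 6 and in siD3 #3 in 2 of 5, *YARS1* in shD3 #4 (−0.23 ± 0.07) in 4 of 6, and *EPRS1* in siD3 #3 (−0.27 ± 0.09) in 1 of 5. *AARS2* (−0.40) and *AIMP1* (−0.44) lost theirs in siD3 #3 without siControl replicate 1.

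The size of the change differed among them. *YARS2* had similar log2 fold changes of −0.45 ± 0.08, −0.45 ± 0.06, −0.30 ± 0.08 and −0.48 ± 0.10 in shD3 #1, deep shD3 #1, shD3 #4 and siD3 #3. *NARS2* was at −0.40 ± 0.07, −0.38 ± 0.07 and −0.41 ± 0.07 in the shRNA comparisons and −0.83 ± 0.10 in siD3 #3. *IARS1* was at −0.26 ± 0.06, −0.23 ± 0.04 and −0.23 ± 0.06, and −0.57 ± 0.10 in siD3 #3. *NARS2* and *YARS2* lie at chr11:78435620-78575194 and chr12:32727490-32755897 (GENCODE 44, GRCh38), both on the minus strand, and *IARS1* at chr9:92210207-92293854, minus strand.

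Opposite calls were found for 8 of the 37 members tested in all 4 comparisons, near the share of all genes (21.2%). All 8 were cytosolic, but mitochondrial synthetases had only 2 calls in shD3 #4 and so little room for opposite ones, and the difference between compartments was not tested. In 5 of them (*FARSB*, *GARS1*, *MARS1*, *NARS1* and *RARS1*) the rise was in shD3 #1 and the fall in shD3 #4. *CARS1* and *TARS1* rose only in the deep libraries of shD3 #1 and fell in shD3 #4, and the deep *CARS1* value (0.54 ± 0.16) is one of those resting on few counts. *CARS1* did not pass without deep shD3 #1 replicate 1 (0.39). *SARS1* fell in deep shD3 #1 (−0.13 ± 0.05), a call kept in 2 of 6 fits that left out a library, and rose in siD3 #3. *FARSB* had the widest range. It read 67.6, 64.4 and 80.6 cpm in shD3 #1 against 56.8, 54.6 and 53.7 cpm in sh1Control, and 47.0, 46.8 and 46.9 cpm in shD3 #4 against 61.7, 58.5 and 54.1 cpm in sh4Control.

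**Figure D4:**
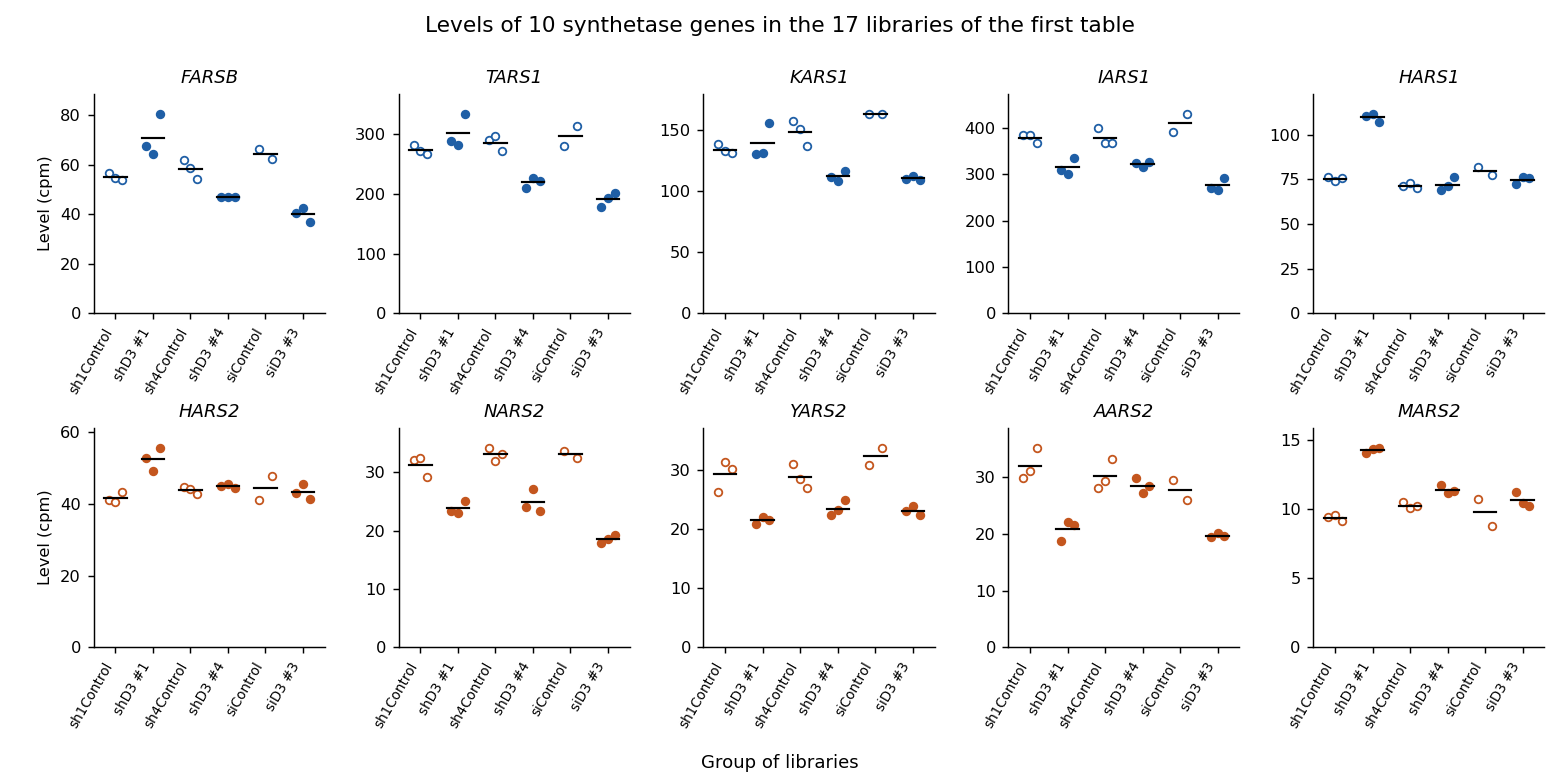
Level in cpm (y axis, from 0) of 10 synthetase genes in the 17 libraries of the first table, with controls as open points, knockdown libraries as filled points, group means as bars, cytosolic genes in blue and mitochondrial genes in orange. *FARSB* is above its controls in shD3 #1 and below them in shD3 #4 and siD3 #3, while *NARS2* and *YARS2* are below their controls in all 3 knockdowns.

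These differences between knockdowns were tested in a model of all 17 libraries of the first table. The log2 fold changes of shD3 #1 exceeded those of shD3 #4 for 11 of 19 cytosolic synthetases and were lower for 2 (*QARS1* and *EPRS1*), where 19.6% of all 18672 genes were higher and 19.8% lower. For mitochondrial synthetases the counts were 3 and 3 of 16. The 11 cytosolic differences ran from 0.42 ± 0.10 (*FARSA*) to 0.67 ± 0.11 (*FARSB*, adjusted p = 8.96e-05), and that of *QARS1* was −0.49 ± 0.09 (adjusted p = 0.000239). The mitochondrial genes that differed most were *SARS2* (−0.84 ± 0.21, adjusted p = 0.00358), *PARS2* (0.56 ± 0.22, adjusted p = 0.0494) and *AARS2* (−0.54 ± 0.12, adjusted p = 0.00153). The *FARSB* difference was 0.57 without shD3 #1 replicate 3, under the 1.5-fold threshold.

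Between siD3 #3 and shD3 #1, 12 cytosolic synthetases were lower in siD3 #3 and 1 (*SARS1*) was higher, and 4 mitochondrial ones were lower and none higher, where 18.1% of all genes were higher and 19.2% lower. Among the synthetases *FARSB* differed most, by −1.03 ± 0.12 (adjusted p = 1.1e-06), then *TARS1* by −0.76 ± 0.11, *HARS1* by −0.62 ± 0.09 and *KARS1* by −0.60 ± 0.11. The scaffold gene *EEF1E1* differed by −0.86 ± 0.24 (adjusted p = 0.00673). Between siD3 #3 and shD3 #4, 3 cytosolic synthetases were higher and 5 lower and 5 mitochondrial ones lower, where 13.2% of all genes were higher and 13.6% lower. *NARS2* was among the latter (−0.41 ± 0.11, adjusted p = 0.00875), and no member reached 1.5-fold there, which 9.25% of all genes did upwards and 8.56% downwards. The difference of *YARS2* did not pass the threshold in any of the 3 contrasts.

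**Figure D5:**
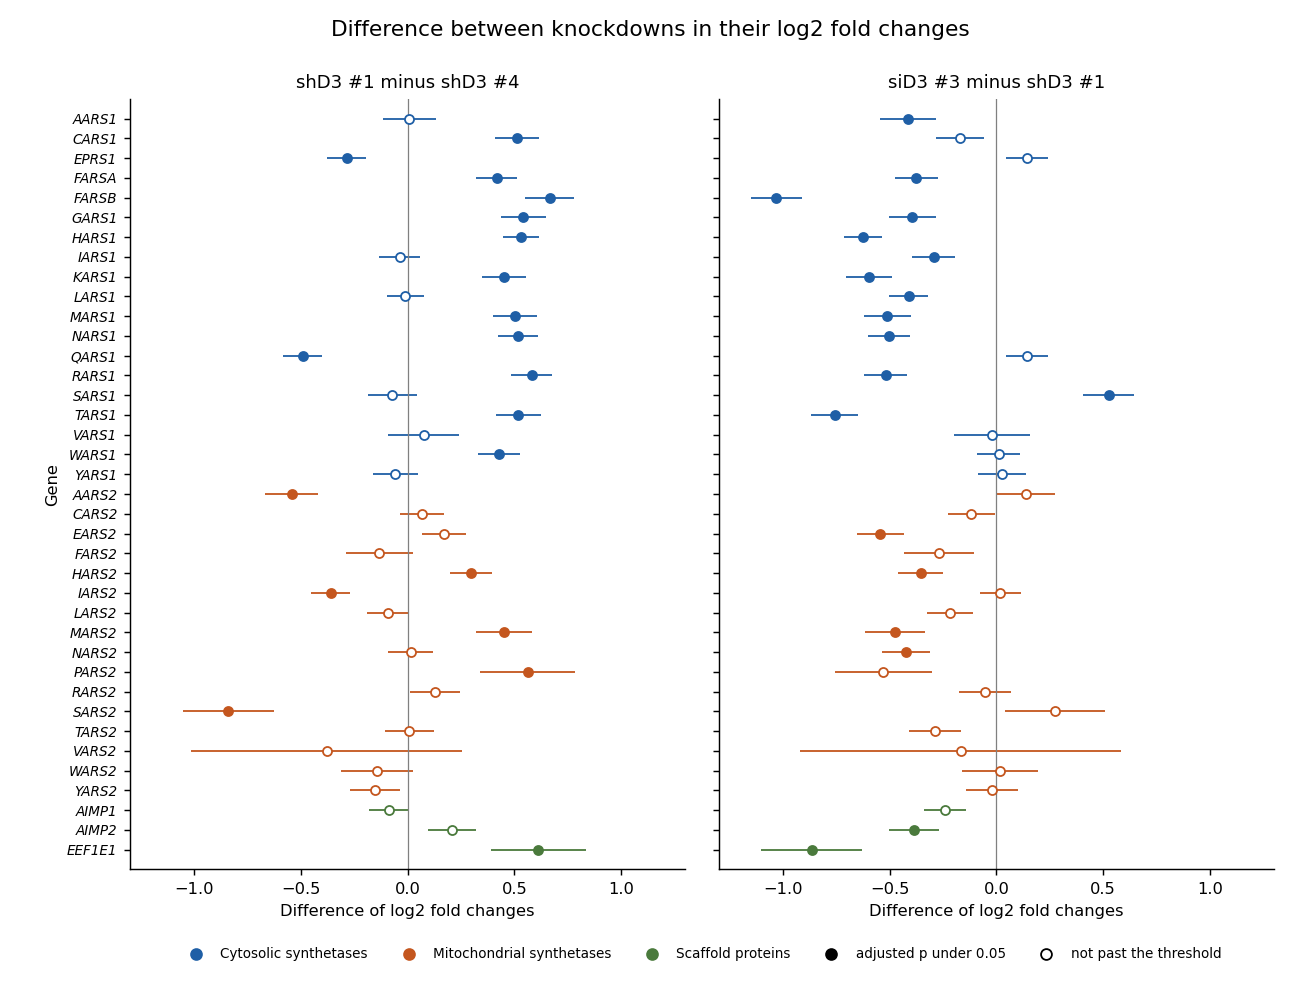
Difference of log2 fold changes between knockdowns (x axis) for each gene (y axis), shD3 #1 minus shD3 #4 on the left and siD3 #3 minus shD3 #1 on the right, as points with standard errors, filled where the adjusted p is under 0.05. On the left 11 cytosolic genes are filled to the right of 0 and 2 to the left, and on the right 12 are filled to the left of 0 and only *SARS1* to the right.

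The scaffold proteins and the enzymes they hold were compared with the free cytosolic synthetases. The multisynthetase complex holds *EPRS1*, *IARS1*, *KARS1*, *LARS1*, *MARS1*, *QARS1* and *RARS1* of the genes listed. Of these 7, shD3 #1 raised 2 and lowered 3, while no rise was seen elsewhere and 5 fell with deep shD3 #1, 4 with shD3 #4 and 5 with siD3 #3. Of the 12 free enzymes, shD3 #1 raised 4 and lowered 1, its deep libraries gave 4 rises and 3 falls, shD3 #4 gave 9 falls without a rise, and siD3 #3 gave 1 rise and 4 falls. As background, 28.6% of all genes rose and 27.8% fell in shD3 #1, 31.1% rose and 31.5% fell with its deep libraries, 20.0% rose and 20.8% fell with shD3 #4, and for siD3 #3 the shares were 16.6% and 16.4%, so the 2 rises of 7 in shD3 #1 are near the background. *AIMP1*, which binds the arginyl and glutaminyl enzymes, read 51.9, 52.2 and 56.3 cpm in shD3 #1 against 62.3, 64.1 and 62.7 cpm (−0.24 ± 0.06), and its log2 fold change was −0.39 ± 0.05 in deep shD3 #1, −0.15 ± 0.06 in shD3 #4 (adjusted p = 0.0563) and −0.49 ± 0.09 in siD3 #3. *AIMP2* was at −0.05 ± 0.08, −0.11 ± 0.05, −0.26 ± 0.07 and −0.45 ± 0.08 in that order, past the threshold in shD3 #4 and siD3 #3. *EEF1E1*, also known as AIMP3, was at 0.22 ± 0.16, −0.38 ± 0.16, −0.39 ± 0.15 and −0.66 ± 0.18, past it likewise in shD3 #4 and siD3 #3. Its call in shD3 #4 was kept in 2 of 6 fits that left out a library, and that in siD3 #3 in 1 of 5.

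Genes for the same amino acid were set side by side. Of 15 cytosolic and mitochondrial pairs (*FARS2* being set beside both *FARSA* and *FARSB*), shD3 #1 gave 12 the same sign and shD3 #4 gave 10. Of the 14 pairs tested in deep shD3 #1 and siD3 #3, 10 and 12 had the same sign. Agreement in sign was not compared with that of unpaired genes. In siD3 #3, 17 of 19 cytosolic and 12 of 15 mitochondrial genes were below 0, so many pairs agree whatever the pairing. Some agreeing values were near 0, such as those of *WARS1* and *WARS2* in siD3 #3 (0.00038 and 0.012). The mitochondrial log2 fold change was the lower of the pair in 12 of 15 for shD3 #1, 11 of 14 for its deep libraries, 3 of 15 for shD3 #4 and 4 of 14 for siD3 #3. The isoleucyl pair is an example, with *IARS2* at −0.50 ± 0.06, −0.32 ± 0.04, −0.14 ± 0.06 and −0.50 ± 0.09. In the seryl pair *SARS1* rose in siD3 #3 while *SARS2* read 3.16, 4.00 and 2.94 cpm against 5.01 and 4.85 cpm (−0.56 ± 0.20, adjusted p = 0.07).

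The histidyl pair shares a promoter region. *HARS1* on the minus strand and *HARS2* on the plus strand start 85 bases apart on chromosome 5. The region is shown because both genes rose in shD3 #1, with the bases from start site to start site in capitals.
*HARS1* and *HARS2*, chr5:140691348-140691477, plus strand: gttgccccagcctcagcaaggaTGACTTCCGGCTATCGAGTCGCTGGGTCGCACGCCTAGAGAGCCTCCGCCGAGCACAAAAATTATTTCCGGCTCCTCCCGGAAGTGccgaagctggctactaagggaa

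*HARS2* read 52.8, 49.3 and 55.7 cpm in shD3 #1 against 41.0, 40.4 and 43.3 cpm in sh1Control (0.33 ± 0.07, adjusted p = 0.000658). In the deep libraries *HARS1* rose (0.38 ± 0.05) and *HARS2* read 27.9, 31.1 and 35.0 cpm against 31.7, 30.0 and 29.9 cpm, which overlapped (0.04 ± 0.07). Neither passed the test in shD3 #4, where *HARS1* was at 0.01 ± 0.06 and *HARS2* at 0.04 ± 0.06, or in siD3 #3, at −0.09 ± 0.08 and −0.04 ± 0.10.

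Cytosolic genes with and without the CARE motif were set side by side as a description. In shD3 #4, 6 of the 7 genes with the motif fell (all but *AARS1*) and 5 of the 9 with a window and no motif, with medians of −0.29 and −0.31. In shD3 #1, 3 of 7 were higher and 1 lower against 3 of 9 higher and 2 lower, with medians of 0.14 and 0.00. In the deep libraries 2 of 7 rose and 2 fell, against 2 rises and 4 falls of 9. With siD3 #3 there were 3 falls of 7 and no rise, against 5 falls and 1 rise of 9. The ranges of both groups overlapped in every comparison, and the shares of all genes are those given for the complex.

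Other genes of the same pathways gave a wider spread. Among 37 amino acid response genes, shD3 #1 raised 11 and lowered 18 of the 36 tested, and its deep libraries gave 10 rises and 19 falls among 37. With shD3 #4 there were 2 rises and 17 falls among 36, and with siD3 #3 there were 6 rises and 11 falls among 37. The rises were near or below the shares of all genes (28.6%, 31.1%, 20.0% and 16.6% in that order), and the falls were above them (27.8%, 31.5%, 20.8% and 16.4%). *ATF4* was at −0.12 ± 0.07, −0.65 ± 0.04, −0.50 ± 0.07 and −0.24 ± 0.10 in these comparisons, past the threshold in deep shD3 #1 and shD3 #4. *ASNS*, the asparagine synthetase, was at 0.17 ± 0.18, 0.01 ± 0.20, −0.58 ± 0.20 and −0.26 ± 0.29, past it in shD3 #4 alone. The most raised gene was *ATF3*, a stress-induced transcription factor, in shD3 #1 (1.97 ± 0.21), deep shD3 #1 (1.73 ± 0.06) and siD3 #3 (2.91 ± 0.32), and *CTH*, which makes cysteine, in shD3 #4 (0.88 ± 0.14). The most lowered were *CBS* (−0.90 ± 0.35), *NUPR1* (−2.74 ± 0.27), *STC2* (−1.55 ± 0.10) and the serine synthesis gene *PHGDH* (−1.90 ± 0.19) in shD3 #1, deep shD3 #1, shD3 #4 and siD3 #3. In all, 11 of the 36 genes of the list tested throughout were called in opposite directions, where 21.2% of all genes were.

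Of 11 other genes that act in tRNA charging, *XPOT*, the tRNA export factor, fell in all 4 comparisons (−0.53 ± 0.06, −0.58 ± 0.04, −0.30 ± 0.07 and −0.62 ± 0.11) and was the most lowered in shD3 #4 and siD3 #3. *GATB*, a subunit of the mitochondrial amidotransferase that makes glutaminyl-tRNA, was the most lowered in both sets of shD3 #1 (−0.75 ± 0.14 and −0.80 ± 0.08) and was at −0.07 ± 0.09 and −0.08 ± 0.14 in shD3 #4 and siD3 #3. *AARSD1*, an alanyl-tRNA editing protein, was the most raised in shD3 #1 (0.83 ± 0.19). *TARS3*, a further cytosolic threonyl enzyme, was the highest in the other 3, at 0.51 ± 0.07 in deep shD3 #1, 0.14 ± 0.09 in shD3 #4 and 0.40 ± 0.19 in siD3 #3, past the threshold in the first of these.

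Among 12 mitochondrial translation factors, shD3 #1 raised 1 and lowered 4, its deep libraries gave 2 rises and 5 falls, shD3 #4 gave no call either way, and siD3 #3 gave 1 rise and 4 falls. Of all genes 28.6% were higher and 27.8% lower in shD3 #1, and 31.1% and 31.5% in its deep libraries. The shares were 20.0% and 20.8% in shD3 #4, and 16.6% and 16.4% in siD3 #3. The rises were below these shares throughout. The falls were near or above them in both sets of shD3 #1, above them in siD3 #3 and below them in shD3 #4. Their median log2 fold changes, −0.10, −0.20, −0.0012 and −0.24, stood beside the mitochondrial synthetases at 0.02, −0.16, −0.06 and −0.44. *GUF1* was the lowest in shD3 #1 (−0.60 ± 0.08), *TUFM*, the elongation factor, in deep shD3 #1 (−0.40 ± 0.06), *MRRF*, the ribosome recycling factor, in shD3 #4 (−0.14 ± 0.07, adjusted p = 0.103) and *MTRFR* in siD3 #3 (−0.57 ± 0.12). The highest were *GFM1* in shD3 #1 (0.40 ± 0.06), *MTRF1L* in deep shD3 #1 (0.45 ± 0.06), and *TSFM* in shD3 #4 and siD3 #3 (0.24 ± 0.30 and 0.45 ± 0.45), where it did not pass the test.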

How the data were processed

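The authors prepared rRNA-depleted, directional libraries, aligned reads to GRCh38.p14 with STAR 2.7.10a after Trimmomatic 0.40, and deposited raw counts per gene from the aligner's gene counting. The methods name 1 annotation, NCBI RefSeq, but the first table lists Ensembl gene identifiers (61757 of 61806 matched to a symbol) and the deep one lists symbols, so the gene models differ, and the annotation of the first table is not given in the sources used here. The strand setting of the counting is not given in the sources used here, so a gene and its antisense partner cannot always be told apart. There are 17 libraries in the first table and 6 in the deep one, and each was analysed apart.

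Knockdown libraries were tested against the controls of the same line or transfection with edgeR 4.0.16 (TMM, filterByExpr, quasi-likelihood test, R 4.3.3), with Benjamini-Hochberg adjustment over all genes tested. A gene was said to rise or fall at an adjusted p under 0.05, and a change of at least 1.5-fold was counted beside this. Differences between knockdowns were contrasts in a model of 6 groups. The scripts were tested on simulated counts. The alternatives were DESeq2 1.42.0, other scalings and filters, a replicate block and leaving out each library. P-values measure the spread between libraries that the labels call biological replicates.

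The named genes were the members past both thresholds (up to 6 in each direction), those called the same way in at least 3 comparisons or in opposite ways in different ones, the extremes of level, the scaffold proteins, the extremes of each other list, *ATF4* and *ASNS*. Other members were added where a sentence turned on them. The members follow from their names, but this gene family and the other lists were chosen with earlier results of these data known. Shares across comparisons were taken over genes with 1 symbol in each table that were tested in every comparison. The grouping by complex and the CARE split were added after the values were seen. Same-numbered libraries did not deviate together (correlations from −0.078 to 0.074 in the shRNA comparisons), so no pairing was used. Protein sequences were not analysed here. Counting error and library number limit the precision, and 9854294 counts was the lowest depth.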

Additional observations from a re-analysis of the deposited data

Results flagged for a closer look

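For 8 differences between knockdowns the contrast of log2 fold changes passed an adjusted p of 0.05 in edgeR's test of the difference itself and also exceeded 1.5-fold. Between shD3 #1 and shD3 #4 these were *FARSB* (0.67 ± 0.11 SE, adjusted p = 8.96e-05), *SARS2* (−0.84 ± 0.21, adjusted p = 0.00358) and *EEF1E1* (0.61 ± 0.22, adjusted p = 0.0345). Between siD3 #3 and shD3 #1 they were *FARSB* (−1.03 ± 0.12, adjusted p = 1.1e-06), *TARS1* (−0.76 ± 0.11, adjusted p = 1.92e-05), *HARS1* (−0.62 ± 0.09, adjusted p = 1.4e-05), *KARS1* (−0.60 ± 0.11, adjusted p = 0.000189) and *EEF1E1* (−0.86 ± 0.24, adjusted p = 0.00673).

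Among all genes, 12.1% were higher and 13.8% lower by both thresholds in the first contrast, and 13.6% higher and 11.7% lower in the second. With each library left out in turn, *SARS2* in the first contrast and *FARSB*, *TARS1*, *HARS1* and *EEF1E1* in the second passed both thresholds in every fit. *FARSB* in the first contrast fell short of 1.5-fold without shD3 #1 replicate 3 (0.57). *EEF1E1* in the first contrast passed in 6 of 12 fits, with values from 0.48 to 0.73. *KARS1* fell short of 1.5-fold without sh1Control replicate 3 or shD3 #1 replicate 3, with values from −0.64 to −0.51. Both contrasts share the shD3 #1 and sh1Control libraries.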

How the results depend on the processing

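Counts of members past both thresholds moved with the rule. With glmTreat, the rises and falls in shD3 #1 became 0 and 0 in place of 1 and 2, and the falls in siD3 #3 became 1 in place of 4. With a log2 fold change of at least 1 all of them became 0, as did the fall in deep shD3 #1. By adjusted p alone shD3 #1 gave 9 rises and 11 falls, its deep libraries 5 and 17, shD3 #4 gave 17 falls and no rise, and siD3 #3 gave 1 rise and 19 falls. Upper quartile scaling gave 1 rise by adjusted p in shD3 #4, 2 falls past both thresholds in siD3 #3 and 2 in deep shD3 #1, where no filter also gave 2. It moved the cytosolic median to −0.18 in siD3 #3 and −0.093 in deep shD3 #1, and the mitochondrial median to −0.35 in siD3 #3 and −0.023 in shD3 #4. This scaling moved the median over all genes in the same directions. That median went from 0.026 to 0.117 in siD3 #3, from −0.015 to −0.045 in deep shD3 #1 and from 0.0079 to 0.044 in shD3 #4. In siD3 #3 the cytosolic median was −0.23 with at least 10 counts in every sample and −0.32 with the replicate block, and the mitochondrial median was −0.40 with at least 10 counts, −0.39 with DESeq2, −0.38 with no filter and −0.36 in a fit of all 17 libraries. In the comparison of siD3 #3 with siControl the replicate block also left out siD3 #3 replicate 3, since siControl has 2 libraries. Leaving out that library without a block likewise gave a cytosolic median of −0.32. With the replicate block 21 members fell in siD3 #3 in place of 19. Between shD3 #1 and shD3 #4 it gave 14 differences higher in place of 15, and between siD3 #3 and shD3 #4 it gave 10 lower in place of 11. No count moved by over 1.5 times under the block.

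With single libraries left out, the rises and falls past both thresholds were each 1 to 2 for shD3 #1. For its deep libraries there were 0 to 1 rises and 1 to 2 falls, and for siD3 #3 2 to 5 falls. By adjusted p the rises in siD3 #3 ranged from 0 to 1 and the falls from 10 (without siControl replicate 1) to 21. For shD3 #1 the cytosolic median lay between −0.036 and 0.040 and the mitochondrial one between −0.051 and 0.0013. The deep cytosolic median lay between −0.095 and 0.019. For shD3 #4 the medians lay between −0.30 and −0.23 and between −0.10 and −0.025. For siD3 #3 they lay between −0.32 and −0.23 and between −0.44 and −0.39. Differences past both thresholds ranged from 0 (without shD3 #1 replicate 3) to 4 higher and from 1 to 2 lower between shD3 #1 and shD3 #4, from 0 to 1 higher between siD3 #3 and shD3 #1, and from 0 to 1 lower between siD3 #3 and shD3 #4, where those lower by adjusted p ranged from 7 to 12. The cause of these changes was not tested. No gene reversed its direction past a threshold under any alternative run. The siControl group of 2 libraries and the low counts of *VARS2*, *SARS2* and *EEF1E1* limit the depth of what could be seen.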
